A study of Mus musculus with 12 samples.

Results

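The 10 genes described here encode neuropeptide precursors: *Nmb*, *Penk*, *Gal*, *Cartpt*, *Nmu*, *Pnoc*, *Npy*, *Vip*, *Adcyap1* and *Nts*. They were chosen by symbol from the 55304 genes of the expression table, and *Nmb* and *Penk* were chosen because earlier results of the same data showed opposite patterns for them. The values of these 2 genes in the 12 libraries are therefore given as a description with no test. The libraries came from male *Pomc*-eGFP mice on a C57Bl6/J background, 8 weeks old at the start, in which the *Pomc* promoter drives a green fluorescent reporter. All 4 groups carried this transgene. Control mice drank standard water. DEX mice received 2.5 µg/ml of the synthetic glucocorticoid dexamethasone in drinking water for 4 weeks. The other groups received the same treatment and were then left without it for 1 week or for 4 weeks. Each group had 3 libraries, each from the eGFP positive anterior pituitary cells of a pool of mice from 1 cage. The pools are the replicates, and they were described as holding the cells of 2 to 3 pituitaries. Because the sort used the *Pomc* promoter, a change in *Pomc* can also change which cells entered the gate.

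Neuropeptides are made as long precursors that enter the regulated secretory pathway, are cut at basic residues by prohormone convertases, and are released from dense core granules to act on G protein-coupled receptors. In the anterior pituitary, several of them are known as local signals between hormone cells. Neuromedin B is a bombesin-related peptide that acts in the pituitary on thyrotrophin release. Enkephalins are opioid peptides cut from proenkephalin, the product of *Penk*. Corticotrophs are the cells that make ACTH from pro-opiomelanocortin, which itself is a neuropeptide precursor and is held under negative feedback by glucocorticoids.

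The stretches that encode the active peptides of *Nmb* and *Penk* are shown because all values below count reads on these precursors as a whole, and the copy number of the peptide differs between them. Both were read from the GRCm38 genome with the GENCODE M21 annotation, on the minus strand, 5′ to 3′. Capitals mark the codons of the peptide, and lower case marks the 6 bases on each side. *Nmb* (chr7:80902227-80905076) encodes neuromedin B once. Its stretch lies at chr7:80904290-80904845 and is split between exons 1 and 2 of 3, so that this interval holds an intron that is left out of the letters.
neuromedin B: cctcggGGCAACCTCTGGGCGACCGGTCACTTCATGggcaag

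*Penk* (chr4:4133531-4138819) encodes Met-enkephalin 6 times and Leu-enkephalin 1 time, all within exon 2 of 2. The 7 copies run from chr4:4134328-4134354 for the first to chr4:4133842-4133868 for the last. The first Met-enkephalin copy and the Leu-enkephalin copy, at chr4:4133935-4133961, are shown because they differ in the last codon of the peptide. In 5 of the 7 copies a codon pair for 2 basic residues stands on both sides, and in the other 2 it stands before the copy only.
Met-enkephalin copy 1: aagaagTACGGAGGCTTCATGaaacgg
Leu-enkephalin: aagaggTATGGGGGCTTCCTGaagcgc

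The libraries held 7719894 to 12848078 reads on genes, and 1 read was worth 0.0787 to 0.127 normalised counts (CPM of the scaled library size). *Pomc* took 0.454% to 19.997% of the reads, *Gh* of somatotrophs 8.20% to 22.9% and *Prl* of lactotrophs 3.50% to 10.3%, so the sorted cells held RNA of other pituitary cell types in every library. *Pomc* was detected in every library and was at 4241 to 8521 normalised counts in the DEX pools and at 34562 to 74260 in the control pools. *Fkbp5*, a classical glucocorticoid target, was at 230 to 545 in the DEX pools and 80.8 to 106 in the control pools, whereas *Tsc22d3*, another target, overlapped between these groups. The differences of *Pomc* and *Fkbp5* between DEX and control did not pass either (limma adjusted p = 0.424 and 0.0971). Other corticotroph markers did not fall with *Pomc* in every case. *Tbx19* was at 498 to 1490 in the DEX pools and 218 to 459 in the control pools. *Avpr1b* was at 67.9 to 130 and 12.1 to 60.0. The differences of *Tbx19* and *Avpr1b* did not pass (limma adjusted p = 0.685 and 0.741). *Neurod1*, at 27.1 to 28.9 and 22.3 to 44.3, overlapped between these groups, as did *Crhr1*, at 52.7 to 138 and 85.5 to 189. In these sorted bulk samples, fewer cells of a type and less RNA per cell cannot be told apart.

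Of the 10 precursors, 9 had reads and passed the filter on low values. *Nts* had no read in any of the 12 libraries. To compare levels between genes, normalised counts were divided by the exon length of the gene in kb. In the control pools, *Gal* was the most abundant, with 42.0 ± 14.3 normalised counts per kb (SD, n = 3 pools). *Nmb* followed with 18.6 ± 6.44 per kb, and its highest pool did not reach the lowest *Gal* pool, which was at 27.8 per kb. The *Nmb* length was all 793 exon bases, of which 163 are shared with *Sec11a* on the same strand. The part of the shared bases in this separation was not tested. *Cartpt* at 8.36 ± 1.31 and *Penk* at 8.34 ± 1.69 per kb overlapped. *Pnoc* at 1.46 ± 0.865 and *Nmu* at 1.46 ± 0.238 per kb overlapped as well. The remaining *Adcyap1*, *Npy* and *Vip* had means of 0.493, 0.354 and 0.220 per kb, and the pools of *Adcyap1* and *Vip* overlapped those of *Npy*.

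The order changed between groups. Per kb, the DEX means ran from *Gal* at 83.9 through *Cartpt* at 38.9 and *Penk* at 33.0 down to *Nmb* at 2.50, and the *Cartpt* pools overlapped both neighbours, whereas all *Penk* pools lay below all *Gal* pools. At 1 week after withdrawal *Nmb* stood first with a mean of 113 per kb, although its pools, from 52.3 to 204, overlapped those of *Gal*, from 28.6 to 97.9. At 4 weeks after withdrawal *Gal*, *Nmb* and *Penk* had means of 21.4, 21.0 and 19.4 per kb with overlapping pools. The plot of levels per length shows *Nmb* with the lowest mean of the 4 abundant genes in DEX and the highest at 1 week.

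**Figure D1:**
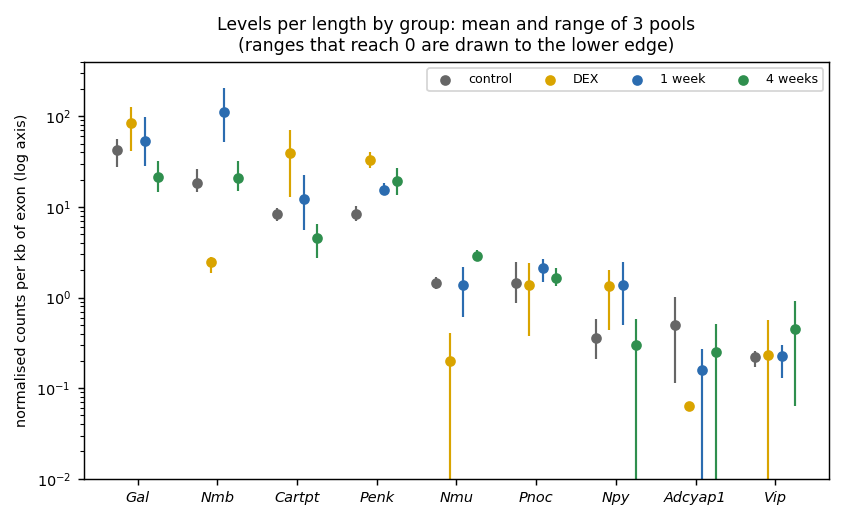
Normalised counts per kb of exon on a log axis for the 9 detected precursors, with the mean of 3 pools as a point and the range of the pools as a line, by group. *Nmb* had a mean of 2.50 per kb in DEX and 113 per kb at 1 week after withdrawal. *Pnoc* had means between 1.37 and 2.12 per kb in all 4 groups.

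*Nmb* was lowest under DEX and highest 1 week after its withdrawal. The control pools had 11.7, 11.9 and 20.7 normalised counts. The DEX pools had 1.49, 2.21 and 2.24, from 65 reads in all against 440 in control. The pools at 1 week after withdrawal had 64.5, 161.9 and 41.5, and those at 4 weeks had 12.7, 12.04 and 25.4. All DEX pools were thus below all control pools, all pools at 1 week were above every other pool, and the pools at 4 weeks overlapped those of control. On the log2(value + 0.1) scale, *Nmb* was at -2.81 against control in DEX (SE 0.449), at 2.40 at 1 week and at 0.14 at 4 weeks. The small difference at 4 weeks was at -0.20 without pool 3 of that group. From DEX to 1 week after withdrawal, the difference was 5.21 on the same log2 scale. In that comparison 1 of 5 endothelial markers (*Kdr*) and 1 of 6 fibroblast and pericyte markers (*Col3a1*) were called higher. The summed endothelial level was 2.82 to 7.85 in DEX and 24.1 to 155 at 1 week, and that of fibroblasts and pericytes was 76.7 to 118 and 85.5 to 228. Most of the latter sum was *Col1a2*, at 75.9 to 114 and 74.9 to 214, which was not called. Of 5 corticotroph markers 0 were called, with a median log2 difference of -0.15. They moved in opposite directions. *Pomc* was at 4.51, whereas *Tbx19* was at -2.35, *Avpr1b* at -2.85, *Neurod1* at -0.15 and *Crhr1* at -0.15. The part of these markers in the *Nmb* difference was not tested.

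*Penk* was highest under DEX and stayed above control after withdrawal. Its control pools had 16.8, 12.6 and 11.5 normalised counts, and its DEX pools had 51.6, 43.6 and 66.7. The pools at 1 week after withdrawal had 30.04, 22.05 and 23.3, and those at 4 weeks had 21.99, 44.2 and 29.0. The pools of all 3 other groups lay above all control pools. The pools at 1 week lay below all DEX pools, and 1 of the 3 pools at 4 weeks overlapped DEX. The log2 differences from control were 1.97 in DEX (SE 0.292), 0.88 at 1 week and 1.17 at 4 weeks. In reads scaled for depth, the DEX libraries held 3.76 times as many as control, and those at 4 weeks held 2.21 times as many.

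**Figure D2:**
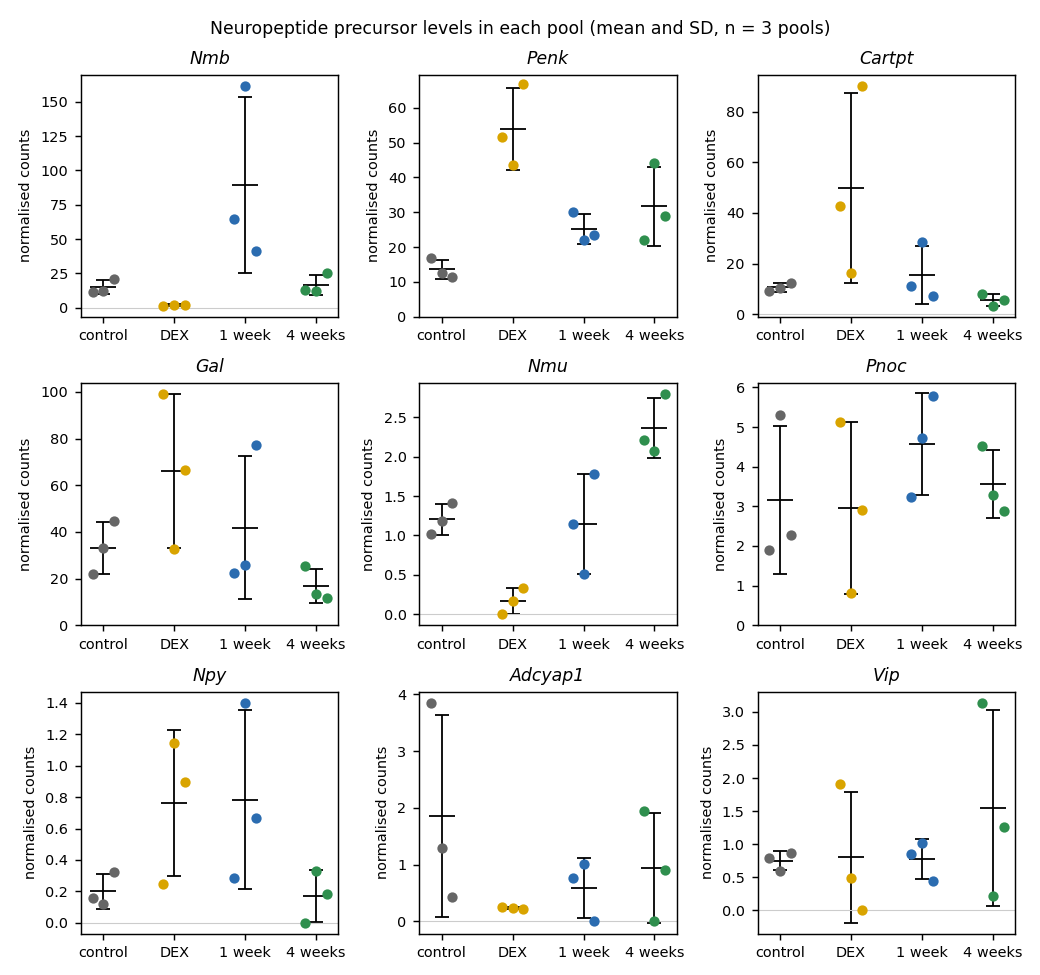
Normalised counts of the 9 detected precursors in each pool, with 1 panel per gene, a point per pool and black bars for the mean and SD of 3 pools. The vertical axes differ between panels. The DEX pools of *Nmb* sit between 1.49 and 2.24, below all other pools, whereas those of *Penk* sit between 43.6 and 66.7 and overlap with 1 pool at 4 weeks.

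The other 8 precursors were compared between groups in a fit across all genes (limma, Benjamini-Hochberg adjustment over 24736 genes), and 7 of them were tested. For the difference between 4 weeks after withdrawal and DEX, 2 of the 7 passed an adjusted p of 0.05, with *Nmu* higher and *Cartpt* lower, where 0.873% of all tested genes passed. Of the 7 log2 differences 4 were positive. Their median was 0.56, the value of *Pnoc*, which did not pass, against 0.0021 over all genes. In limma none of the 7 passed in the other comparisons, as follows. In the F test over the 4 groups 0 of 7 passed, with 3 at an unadjusted p under 0.05, and 0.315% of all genes passed. For DEX against control 0 of 7 passed, with 2 at an unadjusted p under 0.05, and 0.121% of all genes passed. For 1 week after withdrawal against DEX 0 of 7 passed, with 2 at an unadjusted p under 0.05, and 0.433% of all genes passed. For 1 week and for 4 weeks against control 0 of 7 passed and 0 had an unadjusted p under 0.05, where 0% of all genes passed. On the recovered reads, edgeR's quasi-likelihood test called 1 of the 7 in the F test and DESeq2 called 2. For DEX against control and for 1 week against DEX these tools called 0 and 1, and against control after withdrawal both called 0. Over all genes given an adjusted p, the quasi-likelihood test called 0.667% in the F test, 0.182% for DEX, 0.00809% for 1 week and 0% for 4 weeks against control, and 0.586% for 1 week and 0.865% for 4 weeks against DEX. In the same order DESeq2 called 3.68%, 0.977%, 0.0324%, 0.342%, 3.02% and 3.21%. An unadjusted p under 0.05 in limma was reached by 9.21%, 6.8%, 3.79%, 6.35%, 10.8% and 9.94% of all genes in that order. All of these comparisons share the DEX or the control libraries.

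*Cartpt* encodes the precursor of cocaine- and amphetamine-regulated transcript, a peptide known for its role in feeding and stress circuits. Its control pools had 9.05, 10.6 and 12.4 normalised counts, and its DEX pools had 42.6, 16.4 and 90.3. The pools at 1 week had 11.3, 28.5 and 7.12, and those at 4 weeks had 8.22, 3.50 and 5.68. All DEX pools were above control and all pools at 4 weeks were below it, whereas the pools at 1 week spanned both. Between 4 weeks and DEX *Cartpt* fell by 2.84 on the log2 scale (SE 0.560, limma adjusted p = 0.0265). The difference of 1.90 between DEX and control did not pass (limma adjusted p = 0.339), and the DEX pools differed from each other by more than the control pools did, with an SD of 37.5 against 1.68.

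*Nmu* encodes neuromedin U, a peptide known for effects on feeding and smooth muscle, and it was expressed at a low level. Its control pools had 1.02, 1.18 and 1.41 normalised counts, and its DEX pools had 0, 0.164 and 0.336, from 5 reads in all. The pools at 1 week had 1.14, 0.510 and 1.78, and those at 4 weeks had 2.22, 2.08 and 2.80. The DEX pools were below all other pools and the pools at 4 weeks were above all others. Between DEX and 4 weeks *Nmu* rose by 3.44 on the log2 scale (SE 0.659, limma adjusted p = 0.0254). The libraries at 4 weeks held 74 reads against 5 in DEX, which is 15.8 times as many after scaling for depth, with an exact 95% interval of 6.49 to 50.2 that covers counting error only. The difference between DEX and control did not pass (limma adjusted p = 0.233). *Nmu* shares 55 of its 828 exon bases with *4930432L08Rik* on the opposite strand, and reads of the pair in the shared bases cannot be told apart. The partner was at 0% to 75% of *Nmu* in the 11 libraries with *Nmu* reads. It was at 66.7% in DEX pool 3, which held 3 *Nmu* reads.

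The calls for *Cartpt* and *Nmu* were lost when some single pools were left out. Without DEX pool 1, or without any 1 of the 3 pools at 4 weeks, 0 of the 7 precursors passed between 4 weeks and DEX. *Nmu* alone passed without DEX pool 3 and *Cartpt* alone without DEX pool 2. Marker genes of other cell types moved in the same comparison. Of 5 endothelial markers 4 were called higher at 4 weeks than in DEX, and their summed level was 2.82 to 7.85 in the DEX pools and 73.7 to 139 in the pools at 4 weeks. Of 3 thyrotroph markers 1, *Tshb*, was called higher, with a summed level of 50.7 to 263 in DEX and 462 to 728 at 4 weeks. Of 6 fibroblast and pericyte markers 2 were called higher, *Col3a1* and *Pdgfrb*. The summed level of the 6 was 76.7 to 118 in DEX and 174 to 287 at 4 weeks. Most of this sum was *Col1a2*, at 75.9 to 114 and 134 to 229, which was not called (limma adjusted p = 0.339). None of the markers in these 3 lists was at 0 throughout a group. Of 5 corticotroph markers 0 were called, with a median log2 difference of -1.05 between 4 weeks and DEX. *Tbx19* was at -2.53, *Avpr1b* at -2.70, *Neurod1* at -1.055 and *Crhr1* at -0.24, whereas *Pomc* was at 3.42. The part of all these markers in the differences of *Cartpt* and *Nmu* was not tested.

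*Gal* encodes galanin, which is known in the rodent pituitary from lactotrophs and as an oestrogen-responsive peptide. Its control pools had 21.9, 33.0 and 44.5 normalised counts, its DEX pools 99.1, 32.9 and 66.4, and its pools at 1 week 22.5, 25.9 and 77.2. The pools at 4 weeks had 25.3, 13.6 and 11.6 and lay below all DEX pools. The log2 difference of -1.91 between 4 weeks and DEX did not pass (SE 0.481, limma adjusted p = 0.0800), but it did in DESeq2 on the recovered reads (adjusted p = 0.0109).

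*Pnoc* encodes prepronociceptin, another opioid-related precursor. Its pools had 1.89 to 5.30 normalised counts in control, 0.818 to 5.14 in DEX, 3.23 to 5.78 at 1 week and 2.89 to 4.53 at 4 weeks. The groups overlapped, and none of the differences passed. *Npy* encodes neuropeptide Y and rested on 5 to 25 reads per group. Its pools had 0.157, 0.118 and 0.326 normalised counts in control, and 0.248, 1.14 and 0.897 in DEX. They had 0.285, 1.40 and 0.667 at 1 week, and 0, 0.328 and 0.180 at 4 weeks. None of the *Npy* differences passed, and the log2 difference of 1.39 between DEX and control had an adjusted p of 0.799 in limma.

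*Adcyap1* and *Vip* encode PACAP and vasoactive intestinal peptide, related peptides that are known to raise cAMP in pituitary cells. *Adcyap1* had 3.86, 1.30 and 0.435 normalised counts in the control pools and 0.248, 0.245 and 0.224 in the DEX pools, with 64 and 8 reads. The DEX pools lay below all control pools, but 1 control pool held most of the control reads, and the log2 difference of -2.08 did not pass (SE 1.11, limma adjusted p = 0.790). Its pools had 0 to 1.02 at 1 week and 0 to 1.94 at 4 weeks. *Vip* had 0.589 to 0.870 in control 0 to 1.91 in DEX, 0.445 to 1.02 at 1 week and 0.219 to 3.14 at 4 weeks, and the groups overlapped in every comparison. *Nts*, which encodes neurotensin, had 0 reads in each library, which allows up to 0.236 to 0.382 normalised counts for 3 reads, depending on the library. At this depth its expression was not detectable.

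**Figure D3:**
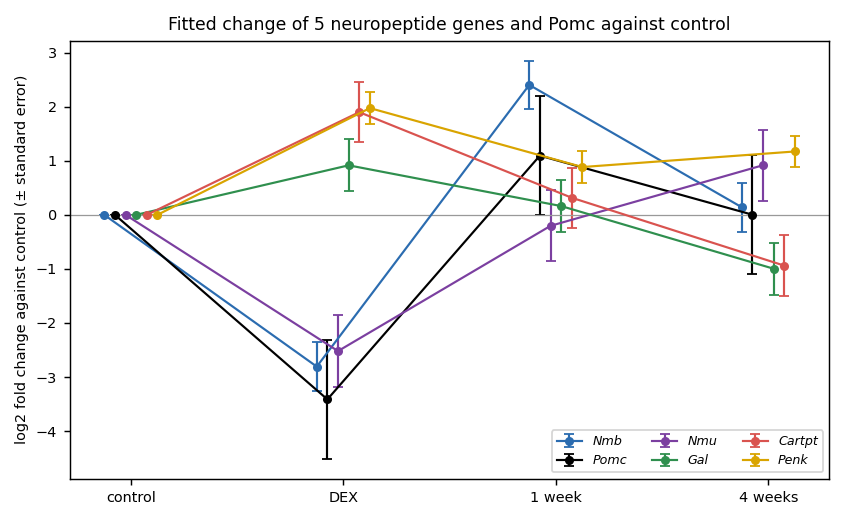
Log2 fold change against the control pools for *Nmb*, *Penk*, *Cartpt*, *Gal*, *Nmu* and, for reference, *Pomc*, with control set to 0, bars for the standard error of the fit and lines that join the groups. *Nmb* went from -2.81 in DEX to 2.40 at 1 week, and *Penk* was above 0 in the 3 groups.

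Windows around the annotated gene starts were available from RefSeq (GRCm38.p6) for 8 of the 10 genes, each from 250 bases before to 50 after the start. Those of *Nmb*, *Cartpt* and *Nmu* are shown because the levels of these genes differed most between DEX and the groups after withdrawal. They were searched on both strands for TGACG, a half-site of the cAMP response element, for AGAACA, a half-site of the glucocorticoid response element, and for AAAGGTCA, the NGFI-B response element. Capitals mark the matches, all 3 windows are on the minus strand, and the letters run 5′ to 3′.
Nmb, chr7:80905013-80905312: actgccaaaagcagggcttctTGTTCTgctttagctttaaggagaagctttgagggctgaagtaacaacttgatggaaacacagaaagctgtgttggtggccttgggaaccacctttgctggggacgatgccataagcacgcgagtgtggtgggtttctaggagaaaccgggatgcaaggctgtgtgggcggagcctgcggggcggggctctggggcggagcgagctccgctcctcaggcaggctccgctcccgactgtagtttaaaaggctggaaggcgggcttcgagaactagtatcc
Cartpt, chr13:99900634-99900933: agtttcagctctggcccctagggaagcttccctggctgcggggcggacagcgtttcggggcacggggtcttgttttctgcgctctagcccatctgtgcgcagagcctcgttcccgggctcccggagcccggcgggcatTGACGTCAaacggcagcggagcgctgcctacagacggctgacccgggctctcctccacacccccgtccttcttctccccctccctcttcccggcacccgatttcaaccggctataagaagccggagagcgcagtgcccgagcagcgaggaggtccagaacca
Nmu, chr5:76363728-76364027: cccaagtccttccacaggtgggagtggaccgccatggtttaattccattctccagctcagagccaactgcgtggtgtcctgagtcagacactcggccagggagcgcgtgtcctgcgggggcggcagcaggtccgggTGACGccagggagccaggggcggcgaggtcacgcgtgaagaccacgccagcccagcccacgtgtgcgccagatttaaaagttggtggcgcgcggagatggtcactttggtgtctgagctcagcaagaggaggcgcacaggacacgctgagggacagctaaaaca

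The *Nmb* window held 1 match, TGTTCT, which is AGAACA on the other strand, at position -229 from the start. The *Cartpt* window held TGACG at -112 and CGTCA at -109, which overlap, and the *Nmu* window held TGACG at -114. A TGACG match was found in 20.8% of all 32851 windows and an AGAACA match in 19% of them. The overlapping pair in *Cartpt* reads TGACGTCA, the full element, which was found in 1.79% of all windows. AAAGGTCA was found in 1.51% of all windows and in none of these 3.

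The genes whose levels followed *Nmb* and *Penk* most closely were ranked by Pearson's r over the 12 libraries among 15756 genes. The points share the 4 groups, so r reflects the group means as well as the pools. For *Nmb* the first 5 were *Oit1* (r = 0.978), *Mt3* (0.951), *Nucb2* (0.949), *Rpl4* (0.947) and *Aga* (0.943). *Nucb2* is itself the precursor of the peptide nesfatin, and it had means of 118 for control and 85.2 for DEX, against 184 and 124 at 1 and 4 weeks after withdrawal. *Pomc* was 6th with r = 0.941. After the group means were removed, r was 0.868 for *Oit1*, 0.8197 for *Mt3* and 0.808 for *Pomc*, but 0.570 for *Rpl4*, 0.462 for *Nucb2* and 0.245 for *Aga*. Pool 2 at 1 week, which was the highest for *Nmb*, was also the highest for *Pomc* with 284740 normalised counts, and pool 3, the lowest of its group for *Nmb*, was the lowest for *Pomc* with 43612. That pool had *Pomc* within the control range but *Nmb* above it. The summed level of 3 melanotroph markers was also highest in pool 2 at 1 week, at 150.01, against 39.7 to 75.8 in the other 11 pools. In that group *Pcsk2* reached 129.7 and *Oacyl* 20.01, whereas *Pax7* was at 0 to 0.255. *Pax7* rested on 1 to 3 reads per group and reached 0.326 in control. The part of melanotrophs in these values was not tested.

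For *Penk* the first 5 were *A830012C17Rik* (r = 0.913), *Pfn2* (0.889), *Camk1d* (0.888), *Sash3* (0.883) and *Ndufaf7* (0.870), and after the group means were removed r was between 0.464 and 0.672 for these 5. *A830012C17Rik* overlaps *Penk* on the opposite strand and shares 233 of the 1634 exon bases of *Penk*. Its value was 7.51% to 18.1% of that of *Penk* in every library. The library kit does not mark strand, although reads were counted with a strand setting, so reads in the bases shared by a gene and its antisense partner cannot be told apart. *Nmb* overlaps a neighbour, *Sec11a*, by 163 exon bases on the same strand. *Sec11a* was between 99.8 and 184 normalised counts, which was 114% to 6983% of *Nmb* in the 12 libraries and 4522% to 6983% in the DEX pools, and its part in the *Nmb* values was not tested.

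**Figure D4:**
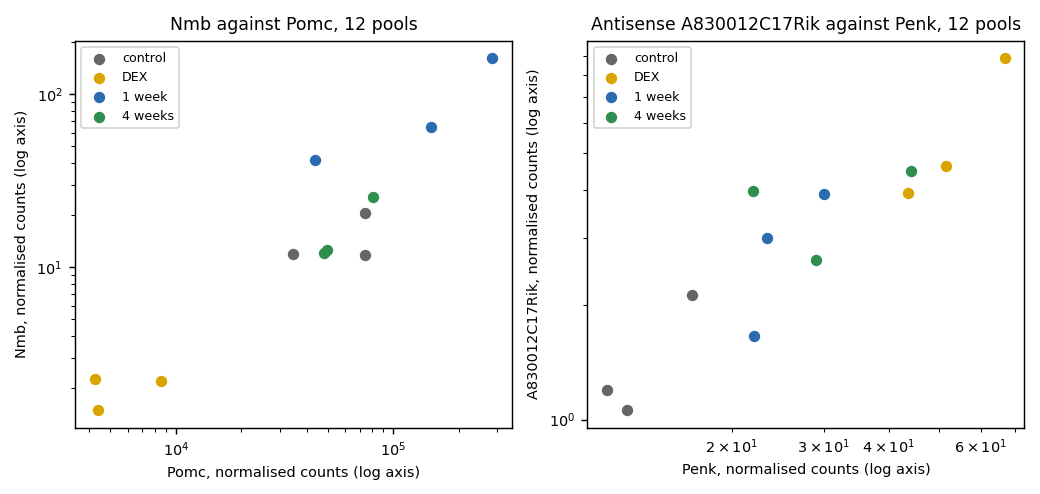
Left, *Nmb* against *Pomc*, and right, the antisense gene *A830012C17Rik* against *Penk*, in normalised counts on log axes with a point for each of the 12 pools, coloured by group. The DEX pools lie lowest for both *Nmb* and *Pomc*, and the pool with 161.9 *Nmb* also had the highest *Pomc*.

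Receptors for the 10 peptides differed widely in level. Of a list of 23 receptors 20 had reads and 15 were tested. In limma 0 of the 15 passed in any comparison. At an unadjusted p under 0.05 there were 2 for DEX against control, where 6.8% of all genes reached this. Against DEX there were 2 for 1 week and 1 for 4 weeks, where 10.8% and 9.94% of all genes did. In the F test there was 1, where 9.21% did. Against control there were 0 for 1 week and 1 for 4 weeks, where 3.79% and 6.35% did. The edgeR and DESeq2 tests also called 0. Among those with a mean of at least 1, *Adcyap1r1*, the PACAP receptor, had 9.07 to 15.7 normalised counts in control and 7.04 to 15.03 in DEX. *Npy1r*, a receptor for neuropeptide Y, had 2.17 to 3.93 in control and 0.331 to 2.62 in DEX. *Ntsr2* and *Sort1*, which bind neurotensin, had control means of 6.16 and 29.4, although *Nts* itself was not detected. The receptor for neuromedin B, *Nmbr*, rested on 3 to 12 reads per group. The opioid receptor *Oprm1* rested on 12 to 23 reads per group and *Oprd1* on 0 to 2.

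Of 10 genes for peptide processing all 10 were tested and 0 passed in limma in any comparison. Against DEX 1 had an unadjusted p under 0.05 for 1 week and 1 for 4 weeks, where 10.8% and 9.94% of all genes did. In the other comparisons there were 0, where 3.79% to 9.21% of all genes did. The edgeR quasi-likelihood and DESeq2 tests called 0 as well. *Pcsk1*, a prohormone convertase, had a mean of 345 for control and 229 for DEX, then 542 at 1 week and 377 at 4 weeks. *Cpe*, the carboxypeptidase that trims the cut peptides, had 1749, 1140, 1652 and 1827. The median log2 difference of the 10 was -0.32 between DEX and control, against -0.022 over all genes. It was 0.44 between 1 week and DEX, against 0.0291.

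Of 53 other neuropeptide precursors 42 had reads and 32 were tested, and 0 passed in limma in any comparison. At an unadjusted p under 0.05 there were 6 in the F test, 7 for DEX, 3 for 1 week and 6 for 4 weeks against control, and 6 for 1 week and 3 for 4 weeks against DEX. These are 6 of 32 where 9.21% of all genes reached this in the F test, and 7 of 32 where 6.8% did for DEX against control. Of all genes 3.79% reached it for 1 week and 6.35% for 4 weeks against control, and 10.8% and 9.94% for these groups against DEX. DESeq2 called 3 in the F test, where it called 3.68% of all genes, and 3 for 4 weeks against control, where it called 0.342%, 0 for DEX and for 1 week against control, 1 for 1 week and 2 for 4 weeks against DEX. The edgeR quasi-likelihood test called 0 in all of them.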

How the data were processed

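RNA from 12 pools of sorted cells, 3 in each of 4 groups, was amplified (SMART-V4) and sequenced on 1 lane. The authors trimmed reads with Trim Galore 0.6.5, aligned them with STAR 2.7.1a to GRCm38 (Ensembl release 98) and counted them with featureCounts 2.0.0 with a strand setting. The deposited values are a normalised signal, CPM of the scaled library size, and 100% of the 271881 values above 0 were whole reads within 1e-06 reads after rescaling. Here log2(value + 0.1) of the 24736 genes above 0.1 in at least 3 libraries was tested in limma 3.58.1 (R 4.3.3; lmFit, eBayes with trend) over all 12 libraries with no covariate. As design alternatives, edgeR 4.0.16 and DESeq2 1.42.0 were run on the recovered reads, and other pseudocounts, filters and scalings, array weights, a replicate block and leaving out each library were tried. The scripts were tested on simulated data. The genes and lists were chosen with earlier results of these data known. All 10 precursors, *Pomc*, *Fkbp5* and *Tsc22d3* were named by rule, as were list genes past the test, receptors with a mean of at least 1, and the 5 genes most like *Nmb* and *Penk*; *Nmbr*, *Oprm1*, *Oprd1*, *Pcsk1* and *Cpe* were named after their values were seen. Samples were grouped by their labels. Residuals of same-numbered pools correlated by 0.202, 0.136 and 0.397 between control and 1 week after withdrawal, and in each other pair of groups at least 1 of the 3 was under 0.1. P-values set a difference against the spread between pools, which limma estimated over all 4 groups together and not for each group. Amplified reads are not independent molecules, so counting intervals cover counting error only.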

Additional observations from a re-analysis of the deposited data

Results flagged for a closer look

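The change of *Nmb* from control had opposite signs in 2 groups. All DEX pools lay below and all pools at 1 week after withdrawal lay above the control pools, and the changes differed by 5.21 on the log2 scale. *Nmb* was chosen for this pattern, so the difference was not tested. *Cartpt* and *Nmu* differed between 4 weeks after withdrawal and DEX, by -2.84 and 3.44 on the log2 scale, and these differences passed in limma (adjusted p = 0.0265 and 0.0254). Both comparisons share the same control pools, which cancel from the difference.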

How the results depend on the processing

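Of the precursors other than *Nmb* and *Penk*, the F test called 1 with edgeR's quasi-likelihood test, 3 with its likelihood ratio test, 2 with DESeq2 and 3 with array weights, against 0 in limma, and 0 to 1 when 1 library was left out. Between DEX and control, and between 1 week and DEX, the likelihood ratio test, DESeq2 and array weights each called 1 against 0. Between 4 weeks and DEX, 1 was called with no filter against 2, up to 3 under other alternatives, and 0 to 3 when 1 library was left out. *Gal* passed in 3 of the 10 alternatives, DESeq2 among them, and in limma without pool 3 at 1 week (adjusted p = 0.0201). *Cartpt* was lost without DEX pools 1 or 3 or any pool at 4 weeks, and *Nmu* without DEX pools 1 or 2 or any pool at 4 weeks. Among the 32 other precursors, against 0 in limma, the F test called 3 with the likelihood ratio test, 3 with DESeq2 and 4 with array weights. The likelihood ratio test called 2 for DEX, 1 for 1 week and 1 for 4 weeks against control, and 2 for each later group against DEX. DESeq2 called 3 for 4 weeks against control, 1 for 1 week and 2 for 4 weeks against DEX, and array weights 3 for 4 weeks against control and 2 against DEX. The likelihood ratio test and array weights each called 1 processing gene, *Pcsk1*, for 1 week against DEX. Of all 24736 genes, the likelihood ratio test called 271 for DEX, 50 for 1 week and 94 for 4 weeks against control. Against DEX it called 701 for 1 week and 664 for 4 weeks. In the same order array weights called 166, 4 and 186 against control, and 566 and 1300 against DEX. DESeq2 called 190, 8 and 60 against control, and 573 and 655 against DEX. Under plain CPM the median log2 difference of all genes between 1 week and DEX was -0.297 against 0.029. It gave -1.46 for *Penk* between 1 week and DEX against -1.09, and -0.0012 for *Nmb* between 4 weeks and control against 0.14, which ranged from -0.20 (without pool 3 at 4 weeks) to 0.41 when 1 library was left out. The DEX change of *Vip* turned from -0.77 to 0.12 in both edgeR tests, 0.096 in DESeq2 and from -1.79 to 0.37 (without DEX pool 3) when 1 library was left out. That of *Pnoc* ranged from -0.83 to 0.43 around -0.27, and was positive without control pool 2 or DEX pool 2. The causes were not tested. Residuals of same-numbered pools correlated from -0.294 to 0.397 (median 0.0559, 7 of 18 over 0.1) and those of other pools from -0.273 to 0.382 (median -0.0145, 7 of 36 over 0.1). All 3 same-numbered pairs were over 0.1 between control and 1 week only, where 0 genes were called with and without the block. With the replicate block the F test called 85 genes against 78, and 2 precursors (*Cartpt* and *Nmu*) between 4 weeks and DEX against 2. It changed no other call in the lists. Over all genes the F test called 165 with the quasi-likelihood test, 1028 with the likelihood ratio test, 734 with DESeq2 and 1069 with array weights, and 12 and 7 without DEX pools 1 and 3. *Npy*, *Vip* and *Adcyap1* rested on 56, 123 and 119 reads over the 12 libraries and *Nmu* on 147.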

Other observations

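Among the other neuropeptide precursors, 3 were noticed after their values were seen. *Rln3*, the relaxin-3 precursor, reached 47.3 normalised counts in 1 library, pool 2 of the group 1 week after withdrawal, which was the pool with the highest *Nmb* and *Pomc*, and 0.380 and 2.11 in the other pools of that group. In the 9 other libraries it was between 0.0828 and 5.59. *Apln*, the apelin precursor, had 19.7, 22.8 and 22.4 at 4 weeks and 6.20 to 14.7 in the other 9 libraries, which did not pass in limma but did in DESeq2 for 4 weeks against control. *Npb*, the neuropeptide B precursor, had 4.24 to 4.64 in control and 0.185 to 0.902 at 4 weeks. It had 1.49 to 4.91 in DEX and 0.222 to 2.19 at 1 week. The difference between 4 weeks and control did not pass (limma adjusted p = 0.472).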
